A study of Mus musculus with 57 samples.

Results

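The genes described here are 10 messengers of the unfolded protein response and the integrated stress response: Hspa5, Herpud1, Xbp1, Atf4, Ddit3, Atf3, Trib3, Asns, Chac1 and Sesn2. They were taken by symbol from the first column of both deposited count tables, which list 50565 genes for one experiment and 53278 for the other. All 10 were found in both tables, and all 10 passed the filter on low counts in both. The RNA came from brain cells positive for CD11b, an integrin carried by microglia and other myeloid cells, and the labels give the cell type as microglia. The mice were wild-type (WT) animals and littermates deficient in P2RY12 (KO), a purinergic receptor by which resting microglia sense ADP. How the P2RY12 allele was made, the strain and the exact age are not given in the sources used here, and the series' design text calls the animals adult.

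In the sex experiment each sex had 4 WT and 5 KO samples, with no treatment in their labels. The LPS experiment held 8 samples each of KO labelled ns, KO labelled LPS, WT labelled ns and, after a pair of near-identical libraries was summed, WT labelled LPS. LPS (lipopolysaccharide, which activates Toll-like receptor signalling) was injected intraperitoneally at a dose of 1 mg/kg. What ns stands for is left unsaid in the labels, which also give no interval between injection and cell isolation, and give no sex for the LPS experiment. Nor do they say that each sample is a separate animal, so the p-values measure the spread between these samples. The libraries of the LPS experiment were divided here into 2 library sets by the running numbers in their names, a division that the labels do not state. Each set held 4 samples of every group after the summing.

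Unfolded proteins in the endoplasmic reticulum (ER) activate the sensors IRE1, PERK and ATF6, which raise chaperones, degradation factors and the transcription factor XBP1. PERK is also one of the kinases that phosphorylate the translation factor eIF2 in the integrated stress response, a change that slows protein synthesis while favouring translation of ATF4. ATF4 then raises genes of amino acid supply, redox control and feedback, so its own messenger need not follow its activity. In microglia and other macrophages these pathways are engaged during secretion of inflammatory proteins and nutrient shortage.

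Library totals ranged from 58539820 to 318509775 counts in the sex experiment and from 15912288 to 168443379 in the LPS experiment. Levels are given as CPM, the usual read count scaled to library size, here with TMM factors, and a gene is said to have risen or fallen where edgeR's quasi-likelihood test gave a Benjamini-Hochberg adjusted p under 0.05 over all genes tested. The microglial marker list summed to between 25648 and 42600 CPM in the sex experiment and to between 16964 and 52663 CPM in the LPS experiment, where it moved with treatment, as given beside the LPS results. The T and NK cell list summed to at most 86.5 CPM in the LPS experiment, with Cd3e at 0 in 11 of its samples, and the neuron list to at most 20.7 CPM. Higher sums were found there for border-associated macrophages, at 155 to 1275 CPM, and oligodendrocytes, at 58.5 to 192 CPM. Neutrophil markers were present in every library. P2ry12 served as the check on genotype and Saa3, an acute-phase gene, as the check on treatment. In the KO samples labelled ns, Saa3 stood at 0.860 to 3.24 CPM, and in those labelled LPS at 1024 to 3698 CPM. Outside number 2, P2ry12 stood at 3516 to 5406 CPM in WT at ns and 400.3 to 1063 CPM in WT at LPS, against 585 to 1243 CPM in KO at ns and 84.2 to 154 CPM in KO at LPS. The treatments did not overlap in either genotype. The 4 WT libraries that end in number 2 went against their labels. Saa3 stood at 1781 CPM in the library labelled WT ns 1 and at 2491 CPM in that labelled WT ns 5, and at 1.59 and 3.21 CPM in those labelled WT LPS 1 and WT LPS 6. P2ry12 stood at 481 and 927 CPM in those labelled WT ns 1 and WT ns 5, within the range of the other libraries labelled WT LPS. It stood at 4461 and 12154 CPM in those labelled WT LPS 1 and WT LPS 6, both above all the others of that label. The members' tests in WT are therefore given with and without these libraries.

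Promoter sequences are shown first for the 5 genes whose start region held a known stress response motif, since the members are usually discussed as targets of shared factors. They are the 250 bases before the start of the RefSeq gene on the build GRCm38.p6, printed 5′ to 3′ on the gene's strand, with matches in capitals. All 10 members had a RefSeq entry. The motifs searched, on both strands, were TGATGNAA (the core of the C/EBP-ATF response element bound by ATF4 dimers), the ER stress element (CCAAT, any 9 bases, CCACG) and the second ER stress element (ATTGG, any base, CCACG). The first matched 3.45% of 32851 promoters of that length, the ER stress element 0.113% and the second element 0.0304%. No match overlapped another in the members.
Hspa5, chr2:34771840-34772089, plus strand: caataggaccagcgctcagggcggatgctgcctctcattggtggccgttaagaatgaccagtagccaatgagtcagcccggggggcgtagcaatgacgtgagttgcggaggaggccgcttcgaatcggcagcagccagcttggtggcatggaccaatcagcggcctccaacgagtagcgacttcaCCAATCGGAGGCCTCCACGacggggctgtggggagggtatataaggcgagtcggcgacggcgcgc
Herpud1, chr8:94386179-94386428, plus strand: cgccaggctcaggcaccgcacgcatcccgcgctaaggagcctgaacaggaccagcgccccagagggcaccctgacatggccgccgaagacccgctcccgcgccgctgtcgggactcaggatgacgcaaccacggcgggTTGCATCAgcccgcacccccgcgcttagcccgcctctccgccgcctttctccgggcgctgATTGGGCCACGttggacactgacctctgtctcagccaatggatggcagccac
Atf3, chr1:191183334-191183583, minus strand: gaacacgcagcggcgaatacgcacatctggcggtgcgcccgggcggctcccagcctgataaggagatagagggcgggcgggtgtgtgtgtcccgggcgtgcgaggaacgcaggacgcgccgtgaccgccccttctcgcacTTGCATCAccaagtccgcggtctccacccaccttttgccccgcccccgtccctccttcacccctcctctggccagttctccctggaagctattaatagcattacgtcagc
Asns, chr6:7693210-7693459, minus strand: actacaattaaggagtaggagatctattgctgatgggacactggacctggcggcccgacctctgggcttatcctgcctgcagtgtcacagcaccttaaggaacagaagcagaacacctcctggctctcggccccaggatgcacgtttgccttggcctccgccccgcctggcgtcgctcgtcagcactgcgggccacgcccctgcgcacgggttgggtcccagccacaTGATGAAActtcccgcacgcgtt
Chac1, chr2:119350992-119351241, plus strand: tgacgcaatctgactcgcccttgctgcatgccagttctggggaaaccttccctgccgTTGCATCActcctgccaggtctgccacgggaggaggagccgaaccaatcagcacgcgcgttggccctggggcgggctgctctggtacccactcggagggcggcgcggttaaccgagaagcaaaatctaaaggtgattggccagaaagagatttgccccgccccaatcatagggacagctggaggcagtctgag
Counting back from the base before the start as -1, the ER stress element of Hspa5 lay at -65 to -47. Herpud1 held the second ER stress element at -52 to -42 and TTGCATCA, the reverse strand of the C/EBP-ATF core, at -112 to -105. TTGCATCA was also found in Atf3 at -110 to -103 and in Chac1 at -193 to -186, while Asns held TGATGAAA on its own strand at -23 to -16. These are matches of letters and not measured binding sites. For Ddit3, Atf4, Xbp1, Trib3 and Sesn2 the searched letters were not in this window.

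The first question was how the stress response genes differed between LPS and ns within each genotype. In KO microglia 6 of the 10 rose (Hspa5, Herpud1, Trib3, Asns, Chac1 and Sesn2) and 1 fell (Atf3), with fold changes from 2.17 to 6.14 for those that rose. Over all 15857 genes tested in this comparison 22.3% passed the same threshold, 10.3% as higher and 12.0% as lower. The median log2 change of the 10 members was 1.17, against -0.02 over all genes tested. When the WT libraries of number 2 were left out of the fit, which shares its estimate of spread with the KO groups, Atf4 and Xbp1 also rose in KO, so that 8 of the 10 rose and Atf3 fell. In that fit 28.5% of genes passed, 14.4% higher and 14.1% lower. Cell type markers moved with LPS in the same samples. The microglial list summed to 33735 to 52663 CPM in KO at ns and 21208 to 27045 CPM at LPS, without overlap, and in the fit with all libraries 5 of its 10 genes fell and 0 rose. The B cell list went from 382 to 552 CPM at ns to 123 to 223 CPM at LPS, and the monocyte list from a median of 310.1 CPM to one of 744 CPM with overlapping ranges. Medians fell from 522 to 269 CPM for the border-associated macrophage list and from 83.6 to 30.2 CPM for the endothelial list, with overlapping ranges in both. Their part in the LPS differences of the stress genes was not tested.

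In WT microglia the answer rested on the libraries of number 2. With all libraries under their labels, 0 of the 10 members passed edgeR's test in WT, as did 0.0% of all genes, with 3 members at an unadjusted p under 0.05 and 0 called by DESeq2. Without these libraries 6 of the 10 rose (Hspa5, Herpud1, Xbp1, Atf4, Trib3 and Asns) and 0 fell, where 30.7% of 16088 genes passed, 15.5% higher and 15.2% lower. The members' median log2 change was then 0.74, against 0.03 over all genes tested, and it was 0.38 against 0.00 with all libraries. In WT without number 2 the microglial list summed to 25704 to 43118 CPM at ns and 16964 to 25799 CPM at LPS, with 7 of 10 genes falling, and the B cell list to 429 to 501 CPM and 86.0 to 173 CPM. These are bulk samples, so a change in the share of a cell type and a change in RNA per cell cannot be told apart.

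**Figure D1:**
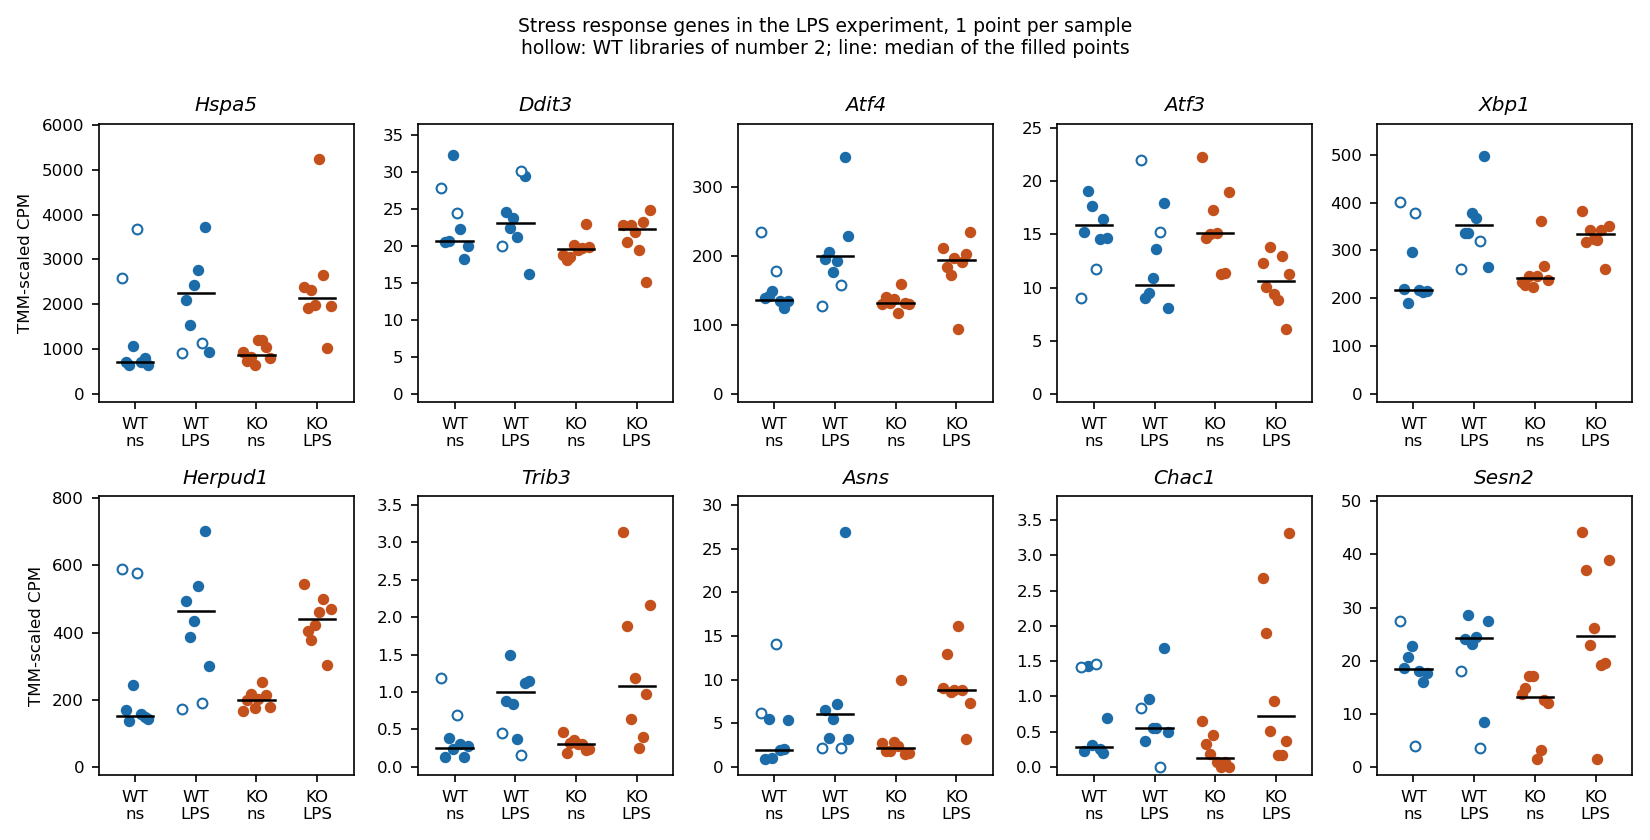
CPM (y axis, linear) of each stress response gene in the 4 groups of the LPS experiment, 1 point per sample, with the WT libraries of number 2 hollow and a line at the median of the filled points. For Herpud1 all 8 KO samples labelled LPS lie above the highest KO sample labelled ns, and the hollow WT points lie on the opposite side to their label.

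Hspa5 encodes BiP, the main chaperone of the ER lumen, and lies on chromosome 2 from 34662102 to 34666541 in GRCm39. In KO its level ran from 648 to 1211 CPM at ns (median 884.4) and from 1026 to 5241 CPM at LPS (median 2153). Of the 8 LPS samples, 7 lay above the highest ns sample, and the remaining sample was KO LPS 7. The log2 fold change was 1.40 ± 0.37 (SE, n = 8 against 8, edgeR adjusted p = 0.00661), a fold of 2.64. It was 1.48 within the first library set and 1.45 within the second, where the adjusted p was 0.36. In WT without number 2 Hspa5 ran from 642 to 1085 CPM at ns (median 724.3, n = 6) and from 935 to 3725 CPM at LPS (median 2259, n = 6). That is a log2 fold change of 1.56 ± 0.32 (edgeR adjusted p = 0.000538), with 5 of 6 LPS samples above every ns sample. The library labelled WT ns 1 held 2592 CPM and that labelled WT ns 5 held 3668 CPM, and those labelled WT LPS 1 and WT LPS 6 held 924 and 1132 CPM. With them included the estimate was 0.51 ± 0.36 and did not pass (edgeR adjusted p = 0.39).

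Herpud1 encodes an ER membrane protein of the degradation machinery (chromosome 8, 95113057 to 95121999). In KO it ran from 167 to 253 CPM at ns (median 200.4) and from 303 to 546 CPM at LPS (median 441.4), so all 8 LPS samples were above all 8 ns samples. Its log2 fold change was 1.12 ± 0.31 (edgeR adjusted p = 0.00907), with 1.23 in the first library set and 1.13 in the second (adjusted p = 0.35 in the second alone). In WT without number 2 the ns samples ran from 135 to 242 CPM (median 152.7) and the LPS samples from 299.96 to 704 CPM (median 464.1), again without overlap. The WT estimate was 1.56 ± 0.20 (edgeR adjusted p = 1.3e-06). The library labelled WT ns 1, at 590.4 CPM, and that labelled WT ns 5, at 578 CPM, exceeded every KO sample labelled LPS. With them and their counterparts at 171 and 189 CPM included, the estimate was 0.57 ± 0.30 (edgeR adjusted p = 0.26).

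Xbp1 encodes the transcription factor that IRE1 activates by splicing its messenger, and counts per gene do not separate the spliced from the unspliced form (chromosome 11, 5470641 to 5475993). KO samples ran from 225 to 362 CPM at ns (median 242) and from 262 to 383 CPM at LPS (median 333.5). The ns sample KO ns 6, at 361.6 CPM, overlapped the LPS range, and the next highest ns sample held 267 CPM. The KO estimate of 0.37 ± 0.16 did not pass (edgeR adjusted p = 0.096), whereas 0.41 ± 0.14 did once the WT libraries of number 2 were out of the fit (adjusted p = 0.032). Within the library sets it was 0.58 in the first and 0.30 in the second. WT samples without number 2 ran from 190 to 297 CPM at ns (median 217.3) and from 266 to 498 CPM at LPS (median 352.1). Xbp1 rose there by 0.73 ± 0.17 on the log2 scale (edgeR adjusted p = 0.0014). With number 2 included the WT estimate was 0.37 ± 0.16 (adjusted p = 0.18). The library labelled WT ns 1 held 401 CPM, that labelled WT ns 5 held 379 CPM, and those labelled WT LPS 1 and WT LPS 6 held 261 and 320 CPM.

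Atf4 encodes the activator that is translated when eIF2 is phosphorylated (chromosome 15, 80139385 to 80141746). KO samples ran from 117 to 159 CPM at ns (median 131.9) and from 94.3 to 235 CPM at LPS (median 193.8). Of the LPS samples, 7 lay above every ns sample and KO LPS 5 lay below every one. The KO estimate of 0.46 ± 0.17 did not pass (edgeR adjusted p = 0.055), while 0.49 ± 0.15 passed without the WT libraries of number 2 (adjusted p = 0.0126). In WT without number 2 all 6 LPS samples, at 177 to 343 CPM (median 200.6), were above all 6 ns samples, at 125 to 150.04 CPM (median 137). The WT difference was 0.74 ± 0.17 (edgeR adjusted p = 0.00148), and 0.39 ± 0.18 with all libraries (adjusted p = 0.19). The 2 WT libraries of number 2 labelled ns held 234 and 179 CPM and the 2 labelled LPS held 127 and 158 CPM.

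Ddit3 encodes CHOP, the factor linked to apoptosis under sustained ER stress, and it did not pass the test in KO or WT, with or without number 2 (chromosome 10, 127126662 to 127132160). KO samples ran from 18.2 to 23.1 CPM at ns (median 19.7) and from 15.2 to 24.9 CPM at LPS (median 22.4). The groups overlapped, with an estimate of 0.11 ± 0.13 (edgeR adjusted p = 0.61). WT samples without number 2 ran from 18.3 to 32.4 CPM at ns (median 20.7) and from 16.2 to 29.5 CPM at LPS (median 23.2). The WT estimate was 0.08 ± 0.16 (adjusted p = 0.73) and 0.01 ± 0.13 with all libraries (adjusted p = 0.97). The number 2 libraries held 27.9 and 24.5 CPM where labelled ns and 20.0 and 30.2 CPM where labelled LPS.

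Atf3, a stress-induced factor of the ATF/CREB family that is also an immediate early gene, was the member that fell in KO (chromosome 1, 190902493 to 190915530). KO samples ran from 11.3 to 22.3 CPM at ns (median 15.1) and from 6.13 to 13.8 CPM at LPS (median 10.6). Of the LPS samples, 5 lay below the lowest ns sample. The log2 fold change was -0.57 ± 0.20 (edgeR adjusted p = 0.0399), with -0.58 in the first library set (adjusted p = 0.13) and -0.46 in the second (adjusted p = 0.60). The call was also lost without a filter (adjusted p = 0.108) and without number 2 in every group (adjusted p = 0.092). In WT without number 2 the ns samples ran from 14.5 to 19.1 CPM (median 15.8) and the LPS samples from 8.14 to 17.9 CPM (median 10.2), with 5 of 6 LPS samples below every ns sample. The WT estimate of -0.45 ± 0.21 did not pass (edgeR adjusted p = 0.11), nor did -0.15 ± 0.20 with all libraries (adjusted p = 0.67). Without number 2 the fall in WT did pass in the first library set alone (-0.79, edgeR adjusted p = 0.0035). It also passed with a term for each set and library number in the fit, the replicate block (-0.53, adjusted p = 0.042). The number 2 libraries held 9.05 and 11.8 CPM where labelled ns and 22.02 and 15.3 CPM where labelled LPS. Immediate early genes, a list that also marks cell handling, did not move as one: of 21 tested in KO, 6 rose and 4 fell, in WT without number 2, 5 rose and 6 fell, and in WT with all libraries edgeR called 0 of 21. Of all genes 22.3% passed in KO and 30.7% in WT without number 2. Their summed level ran from 696 to 2374 CPM in KO at ns and from 452 to 1908 CPM in KO at LPS, and its part in the Atf3 difference was not tested.

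Trib3, a pseudokinase that feeds back on ATF4 and CHOP, is a target of both factors and was scarce in these cells (chromosome 2, 152179345 to 152185980). KO samples held 4 to 15 counts at ns, or 0.186 to 0.463 CPM (median 0.303), and 0.256 to 3.14 CPM at LPS (median 1.08). Of the LPS samples, 6 lay above every ns sample, and KO LPS 5 and KO LPS 6 lay within the ns range. The log2 fold change was 2.10 ± 0.47 (edgeR adjusted p = 0.0023), 2.37 in the first library set and 1.89 in the second (adjusted p = 0.30 in the second alone). WT samples without number 2 ran from 0.132 to 0.389 CPM at ns (median 0.254) and from 0.373 to 1.501 CPM at LPS (median 1.00). Trib3 rose there by 2.04 ± 0.46 (edgeR adjusted p = 0.00121), and with all WT libraries the estimate was 0.99 ± 0.46 (adjusted p = 0.20). The library labelled WT ns 1 held 1.19 CPM and the one labelled WT LPS 6 held 0.157 CPM.

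Asns encodes asparagine synthetase, a target of ATF4 in amino acid shortage (chromosome 6, 7675169 to 7693209). KO samples ran from 1.53 to 9.94 CPM at ns (median 2.15) and from 3.22 to 16.1 CPM at LPS (median 8.83). The ns sample at 9.94 CPM was KO ns 6, and the other 7 held at most 2.80 CPM, below every LPS sample. The log2 fold change was 1.71 ± 0.54 (edgeR adjusted p = 0.0216), 2.12 in the first library set and 1.37 in the second (adjusted p = 0.56 in the second alone), and the call was lost without number 2 in every group (adjusted p = 0.070). WT samples without number 2 ran from 0.922 to 5.44 CPM at ns (median 1.97) and from 3.17 to 26.9 CPM at LPS (median 6.00). The WT difference of 1.64 ± 0.57 passed (edgeR adjusted p = 0.0291), while 0.58 ± 0.52 with all libraries did not (adjusted p = 0.51). Without number 2 the call held with DESeq2. It was lost with only the groups compared in the fit (edgeR adjusted p = 0.082), with the replicate block (1.33, adjusted p = 0.074) and in each library set alone. The number 2 libraries held 6.23 and 14.0 CPM of Asns where labelled ns and 2.16 and 2.11 CPM where labelled LPS. In 4 libraries an Asns level that was high for their group outside number 2 stood beside a high level of neutrophil markers. The summed level of the 10 neutrophil markers, such as S100a8, S100a9 and Ly6g, was 10162 CPM in KO ns 6, 13487 CPM in WT LPS 7 (Asns 26.9 CPM), and 18158 and 16776 CPM in WT ns 3 and WT ns 8 (Asns 5.44 and 5.40 CPM). It ran from 290 to 10162 CPM over KO at ns and from 995 to 4336 CPM over KO at LPS, and its part in the Asns difference was not tested. KO ns 1 and KO ns 4, with sums of 6493 and 7524 CPM, held 2.70 and 2.80 CPM of Asns. Both levels were above the group median of 2.15 CPM and below that of KO ns 6. Some WT libraries of number 2 went the other way. Those labelled WT LPS 1 and WT LPS 6 had sums of 7295 and 5300 CPM beside the low Asns levels given above. The library labelled WT ns 5, with Asns at 14.0 CPM, had a sum of 2834 CPM.

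Chac1 encodes an enzyme that breaks down glutathione and responds to ATF4, and it had the highest estimate among the members in KO (chromosome 2, 119181723 to 119184807). It rested on few counts, 0 to 19 per KO sample at ns and 4 to 87 at LPS. KO samples held 0.656, 0.325, 0.179, 0.451, 0.0672, 0, 0.0744 and 0 CPM at ns in replicates 1 to 8. At LPS they held 2.68, 1.90, 0.517, 0.936, 0.171, 0.171, 0.369 and 3.32 CPM. KO LPS 1, 2, 4 and 8 lay above every ns sample, while the other 4 were within the ns range. The log2 fold change was 2.62 ± 0.71 (edgeR adjusted p = 0.00883), 1.92 ± 0.65 in the first library set (adjusted p = 0.039) and 4.58 ± 1.38 in the second (adjusted p = 0.18). In the second set 2 ns samples held 2 counts and 2 held 0. WT samples without number 2 ran from 0.203 to 1.43 CPM at ns (median 0.280) and from 0.374 to 1.69 CPM at LPS (median 0.553), and overlapped. The WT estimate was 0.73 ± 0.73 (edgeR adjusted p = 0.48), and -0.10 ± 0.66 with all libraries (adjusted p = 0.94). The number 2 libraries held 1.41 and 1.46 CPM where labelled ns and 0.834 and 0 CPM where labelled LPS.

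Sesn2 encodes sestrin 2, a stress-induced inhibitor of mTORC1 signalling under leucine shortage (chromosome 4, 132220115 to 132237767). KO samples ran from 1.51 to 17.2 CPM at ns (median 13.1) and from 1.45 to 44.2 CPM at LPS (median 24.6). Of the LPS samples, 7 lay above every ns sample, and KO LPS 5 lay below every one. The log2 fold change was 1.23 ± 0.44 (edgeR adjusted p = 0.0431), 1.08 in the first library set and 1.51 in the second. The call held in 7 of 12 other settings and was lost in the second set alone (adjusted p = 0.50), without a filter (0.072), with a mean of at least 5 CPM (0.0505), with only the groups compared (0.059) and without the set covariate (0.076). WT samples without number 2 ran from 16.0 to 22.7 CPM at ns (median 18.4) and from 8.51 to 28.5 CPM at LPS (median 24.3). There 5 of 6 LPS samples lay above every ns sample, but the estimate of 0.28 ± 0.44 did not pass (edgeR adjusted p = 0.67), and it was 0.14 ± 0.43 with all libraries (adjusted p = 0.87). Low Sesn2 and a low sum of immediate early genes were found in the same libraries of the second set. Sesn2 stood at 1.51, 3.26 and 1.45 CPM in KO ns 5, KO ns 6 and KO LPS 5, where the immediate early genes summed to 696, 1159 and 452 CPM. It stood at 4.01, 3.52 and 8.51 CPM in the libraries labelled WT ns 5, WT LPS 6 and WT LPS 7, where that sum was 731, 1220 and 1253 CPM. The part of these libraries in the Sesn2 estimates was not tested.

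The members did not follow each other sample by sample within the KO samples labelled LPS. KO LPS 5 had the highest Hspa5 (5241 CPM) and Asns (16.1 CPM) of its group and the lowest Atf4 (94.3 CPM), Trib3 (0.256 CPM), Chac1 (0.171 CPM) and Sesn2 (1.45 CPM). KO LPS 7 had the lowest Hspa5 (1026 CPM), Herpud1 (303 CPM), Xbp1 (262 CPM), Ddit3 (15.2 CPM) and Atf3 (6.13 CPM), but Atf4 at 203 CPM and Trib3 at 0.967 CPM. Trib3, Chac1 and Sesn2 were highest in the same samples, KO LPS 1, 2 and 8. In WT LPS 8, the summed pair, Hspa5 (935 CPM), Herpud1 (299.96 CPM), Xbp1 (266 CPM), Ddit3 (16.2 CPM) and Atf3 (8.14 CPM) were likewise the lowest of the 6 WT samples labelled LPS outside number 2, beside Atf4 at 228 CPM.

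**Figure D2:**
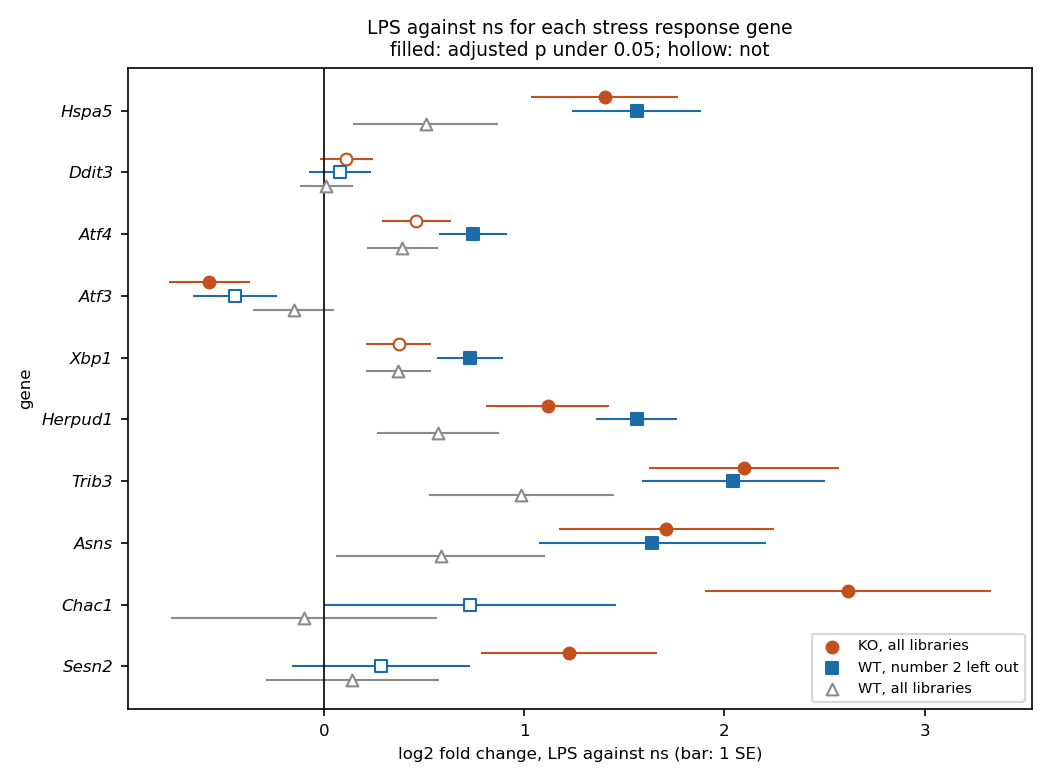
Log2 fold change of LPS against ns (x axis, bars 1 SE) for each stress response gene (y axis) in KO with all libraries (circles), in WT without number 2 (squares) and in WT with all libraries (triangles), filled where the adjusted p is under 0.05. Hspa5, Herpud1, Trib3 and Asns are filled in both KO and WT without number 2, and no triangle is filled.

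Whether KO and WT differed in these changes was tested directly by the interaction of genotype and LPS. None of the 10 members passed edgeR's test for it with all libraries, where 0.0% of genes passed and 1 member had an unadjusted p under 0.05, or without number 2, where again 0.0% passed and 0 members had one. DESeq2 called 0 members in both. Chac1 had the highest interaction estimate, 2.72 ± 0.97 on the log2 scale with all libraries (unadjusted p = 0.00856, edgeR adjusted p = 0.42) and 1.90 ± 0.98 without number 2 (adjusted p = 0.77). For Sesn2 it was 1.09 ± 0.61 (adjusted p = 0.52) and 0.97 ± 0.59 (adjusted p = 0.77). Chac1 and Sesn2 rose in KO and did not pass in WT, but a difference between the genotypes was not shown for either.

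KO was then compared with WT at ns and at LPS. At ns 0 of the 10 members passed edgeR's test with all libraries, where 0.114% of genes passed and 1 member had an unadjusted p under 0.05, and 0 passed without number 2, where 0.0932% of genes did and 0 members had one. For Chac1 the log2 difference of KO from WT was -1.88 ± 0.72 with all libraries (edgeR adjusted p = 0.46) and -1.27 ± 0.72 without number 2 (adjusted p = 0.57). For Sesn2 the differences were -0.70 ± 0.44 (adjusted p = 0.66) and -0.82 ± 0.42 (adjusted p = 0.56). At LPS 0 members passed with all libraries, where 0.126% of genes passed, and 0 without number 2, where 0.0746% did. No member had an unadjusted p under 0.05 at LPS in either fit, and DESeq2 called 0 members in any of these 4 comparisons. At LPS the members' estimates ran from -0.33 to 0.83 with all libraries and from -0.27 to 0.62 without number 2. These comparisons share samples with those of LPS against ns.

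The other genes of the pathway were taken from 6 lists, and were counted in KO with all libraries and in WT without number 2. In WT with all libraries 0 genes of these lists passed edgeR's test, and the list medians there ran from 0.12 to 0.36. The share of all genes called, against which each count below is to be read, was 22.3% in KO (10.3% higher, 12.0% lower) and 30.7% in WT without number 2 (15.5% higher, 15.2% lower). Of the ER chaperones and foldases, which fold secreted proteins and form their disulfide bonds, none fell. In KO 13 of 19 rose and 0 fell, with a median log2 change of 0.99 over the list, and in WT without number 2 15 rose and 0 fell, with a median of 1.14, beside 22.3% and 30.7% of all genes called. Over all genes the medians were -0.02 and 0.03. Sdf2l1, a partner of BiP complexes, rose by 1.59 ± 0.39 in KO and 1.64 ± 0.35 in WT. Hyou1, a large ER chaperone, rose by 1.46 ± 0.41 and 1.24 ± 0.37, and the disulfide isomerase Pdia4 by 1.35 ± 0.37 and 1.30 ± 0.35. With all WT libraries these 3 stood at 0.58, 0.59 and 0.30 and did not pass.

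Genes of amino acid supply and one-carbon metabolism that ATF4 is known to raise moved in the same direction. In KO 13 of the 18 tested rose and 0 fell (median 0.96), and in WT without number 2 11 rose and 0 fell (median 0.87), beside 22.3% and 30.7% of all genes. The glutamine transporter Slc1a5 rose by 2.13 ± 0.44 in KO, from a median of 12.4 CPM at ns to 51.8 CPM at LPS, and by 1.77 ± 0.38 in WT without number 2. Mthfd2, a mitochondrial folate enzyme, rose by 2.00 ± 0.40 and 1.72 ± 0.31, and the cationic amino acid transporter Slc7a1 by 1.88 ± 0.40 and 1.41 ± 0.30. Of the tRNA synthetase list (12 synthetases and the tRNA exporter Xpot), 8 of 13 rose and 0 fell in KO (median 0.72), and 8 rose and 0 fell in WT without number 2 (median 0.46). Iars, Lars and Tars, which charge tRNAs with isoleucine, leucine and threonine, rose by 1.08 ± 0.28, 0.91 ± 0.27 and 0.91 ± 0.24 in KO and by 0.71 ± 0.20, 1.07 ± 0.24 and 1.04 ± 0.18 in WT without number 2. With all WT libraries the 6 genes named here stood between 0.01 and 0.96 and did not pass.

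Of the sensors and the eIF2 machinery, 4 of 18 rose and 0 fell in KO (median 0.31). The share called was near the 22.3% of all genes, of which 10.3% were higher and 12.0% lower. In WT without number 2 8 rose and 0 fell (median 0.44), beside 30.7% of all genes, 15.5% higher and 15.2% lower. Eif2ak2, which encodes the double-stranded RNA kinase PKR and is also an interferon-stimulated gene, rose by 1.79 ± 0.29 in KO and 1.09 ± 0.23 in WT. The ER stress sensor Atf6 rose by 0.79 ± 0.22 and 0.58 ± 0.19, and Ppp1r15b, a subunit of the eIF2 phosphatase, by 0.51 ± 0.19 and 0.62 ± 0.14. Of 16 genes of ER-associated degradation 3 rose and 2 fell in KO (median 0.30), and 7 rose and 2 fell in WT without number 2 (median 0.49), beside 22.3% and 30.7% of all genes. Derl3, of the retrotranslocation channel and also a plasma cell marker, rose by 1.51 ± 0.51 and 1.55 ± 0.54, and the ATPase Vcp by 0.64 ± 0.16 and 0.74 ± 0.13. Sel1l, an adaptor of the Syvn1 ligase, rose by 0.69 ± 0.24 in KO and stood at 0.48 ± 0.21 in WT without number 2 (edgeR adjusted p = 0.077). The plasma cell list, which includes Derl3 itself, summed to 15.0 to 93.6 CPM in KO at ns and 2.21 to 10.5 CPM in KO at LPS. The part of plasma cells in the Derl3 difference was not tested.

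Effectors and feedback genes were split in direction. Of 14 tested 5 rose and 4 fell in KO (median 0.31), and 5 rose and 3 fell in WT without number 2 (median 0.33), beside 22.3% and 30.7% of all genes. Cebpb, a transcription factor that partners ATF4 and is also raised by inflammation, rose by 1.66 ± 0.35 in KO and 1.94 ± 0.29 in WT. Bcl2l11, which encodes the apoptosis activator BIM, fell by 1.43 on the log2 scale in KO (SE 0.35) and by 1.68 in WT (SE 0.29). Sesn3, a relative of Sesn2 under FOXO control, fell by 1.18 (SE 0.30) and by 1.73 (SE 0.25), opposite in sign to Sesn2 in KO. With all WT libraries Eif2ak2, Atf6, Ppp1r15b, Derl3, Vcp, Sel1l, Cebpb, Bcl2l11 and Sesn3 stood at 0.36, 0.05, 0.27, 0.69, 0.28, -0.07, 1.31, -1.01 and -1.13 and did not pass.

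**Figure D3:**
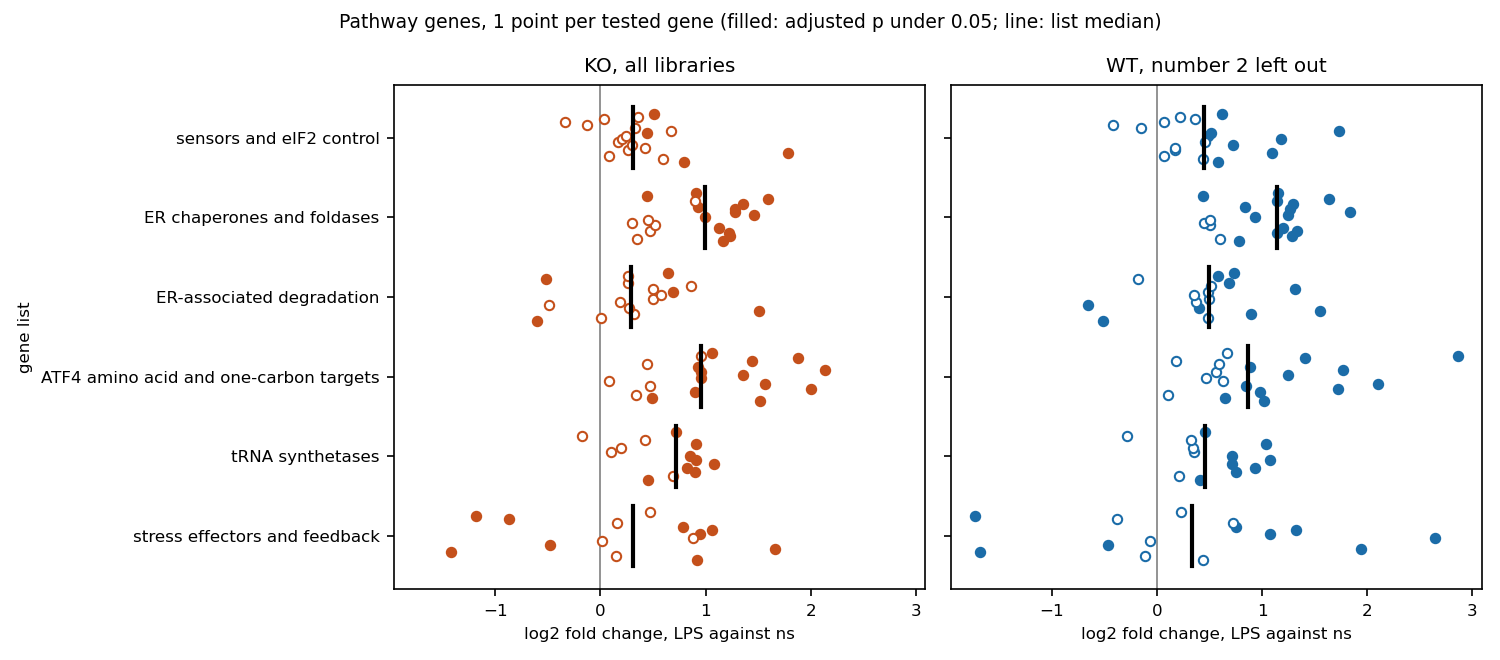
Log2 fold change of LPS against ns (x axis) for each tested gene of the 6 pathway lists (y axis), in KO with all libraries (left) and in WT without number 2 (right), filled where the adjusted p is under 0.05, with a line at the list median. The list medians run from 0.30 to 0.99 in KO and from 0.33 to 1.14 in WT, and the genes that fell are in the degradation and effector lists.

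The second question was whether the stress response genes differed between KO and WT without LPS in either sex. In the sex experiment 0 of the 10 members passed edgeR's test for KO against WT averaged over the sexes, where 0.432% of 31709 genes passed, with 2 members at an unadjusted p under 0.05. In males 0 members passed, beside 0.00946% of genes, with 1 member at an unadjusted p under 0.05, and in females 0 passed, beside 0.164%, with 2 at an unadjusted p under 0.05. The interaction of sex and genotype passed for 0 members and 0.0% of genes, and female against male WT for 0 members and 0.0725% of genes, with 0 members at an unadjusted p under 0.05 in both. DESeq2 called 0 members in all 5 comparisons. P2ry12 itself stood at 3007 to 5928 CPM in WT and 309 to 526.4 CPM in KO, without overlap.

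Herpud1 came closest to the threshold. It held 149, 125, 124 and 113 CPM in male WT 1, 3, 4 and 5, and 169, 159, 133, 144 and 141 CPM in male KO 1 to 5. In females it held 143, 123, 148 and 137 CPM in WT 1, 2, 3 and 5, and 155, 188, 153, 165 and 156 CPM in KO 1 to 5. The female groups did not overlap and the male groups did. Averaged over the sexes the difference was 0.24 ± 0.07 (edgeR adjusted p = 0.17). Hspa5 was 0.14 ± 0.09 higher (adjusted p = 0.70), and Xbp1 differed by 0.04 ± 0.07 (adjusted p = 0.98). In this table the counted span of Hspa5 is overlapped over 81.0% of its length by Rabepk on the opposite strand, whose median count was 116157 against 123179 for Hspa5, so its count is uncertain. The strand setting of the counting is not given in the sources used here.

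Ddit3, Atf3 and Atf4 were estimated higher in KO without passing the test. Atf3 held 178, 140, 129 and 429.7 CPM in male WT 1, 3, 4 and 5, and 344, 216, 210.1, 132 and 302 CPM in male KO 1 to 5. In females it held 290.4, 325, 432 and 358 CPM in WT 1, 2, 3 and 5, and 331, 555, 627, 705 and 777 CPM in KO 1 to 5. Of the 5 female KO samples 4 lay above every female WT sample, and KO 1 lay within their range. The difference was 0.77 ± 0.37 in females (edgeR adjusted p = 0.98) and 0.14 ± 0.36 in males (adjusted p = 0.997), and 0.45 ± 0.26 averaged (adjusted p = 0.66). Without male WT 5 the male difference in Atf3 was 0.69, and without male WT 4 it was -0.059. Ddit3 in female KO 1 to 5 held 60.0, 104.5, 92.2, 117 and 103.5 CPM, against 58.5, 62.7, 73.7 and 82.1 CPM in female WT 1, 2, 3 and 5. Its averaged difference was 0.40 ± 0.16 (adjusted p = 0.50), with 0.46 ± 0.23 in females and 0.34 ± 0.23 in males. In males Ddit3 held 49.5, 39.1, 39.4 and 80.8 CPM in WT 1, 3, 4 and 5, and 75.8, 60.6, 55.8, 55.5 and 83.5 CPM in KO 1 to 5. The male difference was 0.64 without male WT 5 and ran down to 0.22 without male KO 5. Atf4 was 0.34 ± 0.15 higher in females (adjusted p = 0.91) and 0.17 ± 0.11 averaged (adjusted p = 0.71). The immediate early genes summed to 6832 to 8690 CPM in female WT and 6795 to 10466 CPM in female KO, with female KO 1 the lowest, and their part in the Atf3 and Ddit3 estimates was not tested. Ddit3 is overlapped by Mbd6 over 77 bases and by Mars1 over 71 bases on the opposite strand.

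The estimates of 3 ATF4 targets changed sign with 2 WT samples. Asns held 1.69, 1.40, 2.56 and 13.9 CPM in male WT 1, 3, 4 and 5, and 1.52, 9.48, 1.51 and 1.18 CPM in female WT 1, 2, 3 and 5. The KO samples ran from 1.55 to 3.70 CPM in males and from 1.71 to 4.37 CPM in females. Male WT 5 and female WT 2 thus stood apart from all 16 other samples. The same samples had neutrophil marker sums of 49213 and 28858 CPM, against at most 7708 CPM in the others, and monocyte marker sums of 5090 and 2912 CPM. Chac1 followed, with 2.31 CPM in male WT 5 and 0.997 CPM in female WT 2 against 0.116 to 0.728 CPM in the others, as did Sesn2, with 19.8 and 14.2 CPM against 8.23 to 13.9 CPM. With all samples the averaged differences were -0.65 ± 0.51 for Asns (edgeR adjusted p = 0.82), -0.74 ± 0.49 for Chac1 (adjusted p = 0.74) and -0.16 ± 0.15 for Sesn2 (adjusted p = 0.88). Without these 2 samples they turned to 0.68 for Asns (edgeR adjusted p = 0.206), 0.49 for Chac1 (adjusted p = 0.971) and 0.07 for Sesn2 (adjusted p = 0.9999), still short of the threshold, and 0 members passed. In males Chac1 stood at -1.17 ± 0.68 and Asns at -1.03 ± 0.71 with all samples, and at -0.11 and 0.35 without male WT 5. Trib3 stood at 0.12 ± 0.30 averaged (adjusted p = 0.99), with male KO 5 (1.13 CPM) and female KO 4 (1.09 CPM) the highest KO samples.

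**Figure D4:**
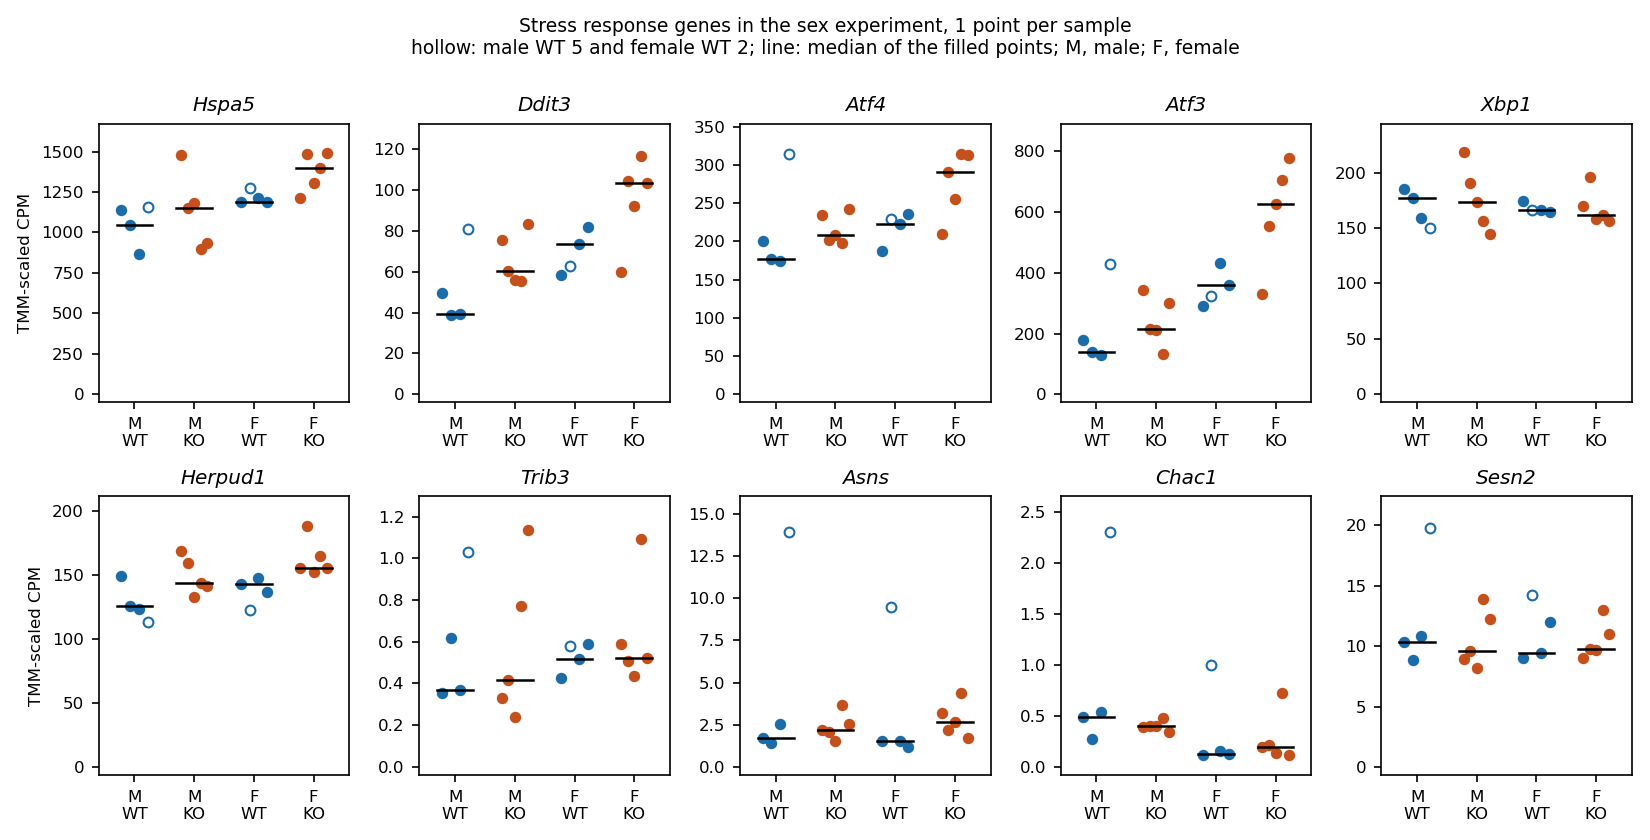
CPM (y axis, linear) of each stress response gene in the 4 groups of the sex experiment, 1 point per sample, with male WT 5 and female WT 2 hollow and a line at the median of the filled points. The hollow points are the highest in the Asns, Chac1 and Sesn2 panels, and 4 of the 5 female KO samples lie above the female WT samples for Atf3.

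Ddit3, Atf3 and the immediate early genes are set side by side for the 2 experiments. Over all samples Ddit3 ran from 39.1 to 117 CPM in the sex experiment and from 15.2 to 32.4 CPM in the LPS experiment, and Atf3 from 129 to 777 CPM and from 6.13 to 22.3 CPM. The immediate early list summed to 5120 to 10854 CPM and to 452 to 2929 CPM. The tables may have been counted in different ways, and no test was made across them.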

How the data were processed

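The authors deposited 2 tables of raw read counts per gene, 18 columns for the sex experiment and 33 for the LPS experiment, and per the submitters' processing notes used STAR 2.6.1, featureCounts and GRCm39. The labels list 6 repeat libraries without a column of their own. In the first, 79.0% to 89.2% of counts from 1 to 20 were even, against 39.7% to 45.6% in the second, and gene lengths in the first equal the whole gene span. Median totals were 92.0 and 24.7 M counts.

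Genes were kept by filterByExpr (31709 and 15857), scaled by TMM and tested with edgeR 4.0.16 (quasi-likelihood, robust; R 4.3.3) with Benjamini-Hochberg adjustment over all genes. The LPS fit had library set as a covariate. WT LPS 8 and 9 differed by less than other pairs (chi-square per degree of freedom 1.86, next lowest 8.32) and were counted as 1 sample. DESeq2 1.42.0 and other settings were alternatives. Tests on simulated data with 200 changed genes recovered 59% of 2-fold and 91% of 4-fold changes for KO against WT averaged over the sexes, and 33% and 94% for LPS in KO. The simulated counts held no library set effect, no outlying library and no spread of a gene beyond the trend over all genes. Recovery in the real data may therefore be lower. Pathway genes were named as the first 3 of each list by absolute log2 change among those called in KO. The members and lists were chosen with earlier results of these data known.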

Additional observations from a re-analysis of the deposited data

Results flagged for a closer look

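Over 80 groups of 4 to 8 samples and 10 genes, 15 held a sample far from the others by Dixon's ratio. Chance passes this ratio in about 1 group in 20 where values are independent and normally distributed. That rate may not hold here, since the genes share libraries and CPM was not transformed. The WT groups of the LPS experiment also include the libraries of number 2. In KO labelled LPS, replicate 5 had Atf4 at 94.3 CPM (others 172 to 235) and Hspa5 at 5241 CPM (others 1026 to 2646). In KO labelled ns, replicate 6 had Asns at 9.94 CPM (others 1.53 to 2.80) and Xbp1 at 361.6 CPM (others 225 to 267), and replicate 7 had Ddit3 at 23.1 CPM (others 18.2 to 20.3). In WT labelled LPS, replicate 7 had Asns at 26.9 CPM (others 2.11 to 7.22) and Atf4 at 343 CPM (others 127 to 228). The library labelled WT ns 5 had Asns at 14.0 CPM (others 0.922 to 6.23).

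In the sex experiment male WT 5 stood apart for Asns at 13.9 CPM (others 1.40 to 2.56), Atf3 at 429.7 CPM (others 129 to 178) and Chac1 at 2.31 CPM (others 0.274 to 0.536). Female WT 2 stood apart for Asns at 9.48 CPM (others 1.18 to 1.52) and Chac1 at 0.997 CPM (others 0.119 to 0.158). Female KO 4 stood apart for Chac1 at 0.728 CPM (others 0.116 to 0.217) and Trib3 at 1.09 CPM (others 0.434 to 0.589), and had the highest neutrophil marker sum of the female KO samples, 5527 CPM.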

How the results depend on the processing

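Of the 7 members called for LPS in KO, 4 were called among genes with a mean of at least 5 CPM, where Trib3 and Chac1 were no longer tested, and 0 within the second library set alone, with 4 samples a group. Without the WT libraries of number 2, the 9 called in KO became 0 in the second set alone. The 0 called in WT became 6 without the WT libraries of number 2 and 6 without number 2 in every group, and those 6 became 1 in the second set alone. The fits of 1 library set without number 2 were added after seeing the data. For LPS in WT, Ddit3 changed sign to -0.0089 with no filter, -0.15 in the first set, -0.036 with the summed pair kept apart, and -0.028 in the first set without number 2. Chac1 in WT changed sign to 0.13 with the replicate block, 0.73 without number 2 in WT and 0.61 without it in every group. Leaving out male WT 5 and female WT 2 together, also added after seeing the data, turned the averaged differences of Asns to 0.68, Chac1 to 0.49 and Sesn2 to 0.068, and that of Asns in males to 0.35. Leaving out 1 sample at a time, the averaged differences ran from -0.0084 to 0.063 for Xbp1, from -0.097 to 0.33 for Trib3 and from -0.80 to 0.037 for Asns. In males they ran from -0.059 to 0.69 for Atf3 and from -1.33 to 0.35 for Asns. The count of members called stayed at 0 in all 5 comparisons of the sex experiment. The cause of these changes was not tested. Apart from the fit without the WT libraries of number 2, the share of all genes called under these settings is not given here. The counts therefore cannot tell a change in the members from a change in the number of genes called.

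Same-numbered samples did not deviate together beyond the limit of 0.1 in every pair (7 of 24 pairs in the sex experiment, mean correlation 0.00677; 32 of 45 in the LPS experiment, mean 0.244). With the replicate block 7 members were called for LPS in KO, 9 without number 2, 0 in WT and 6 in WT without number 2 (5 higher and 1 lower, with Asns lost at 1.33, adjusted p = 0.074, and Atf3 gained at -0.53, adjusted p = 0.042), and 0 in the sex experiment. The share of all genes called with the block is not given here either. Depth limits Trib3 and Chac1, which held 4 to 15 and 0 to 19 counts per KO sample at ns.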

Other observations

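Among the pathway genes outside the members, Psat1, which encodes phosphoserine aminotransferase of serine synthesis and was singled out after its values were seen, differed between genotypes in the sex experiment. It stood at 32.3, 21.8, 27.8 and 32.7 CPM in male WT 1, 3, 4 and 5, and at 39.8, 49.3, 36.5, 44.4 and 40.1 CPM in male KO 1 to 5. In females it stood at 30.96, 27.6, 35.4 and 31.5 CPM in WT 1, 2, 3 and 5, and at 39.7, 48.4, 50.0, 39.3 and 46.1 CPM in KO 1 to 5. Every KO sample was above every WT sample. The averaged log2 difference was 0.53 ± 0.08 (edgeR adjusted p = 0.00679), and it was called in 26 of 26 settings, with estimates from 0.48 to 0.57. Most of these settings refit the same samples with 1 left out. Psat1 did not pass in males or in females alone. In the LPS experiment it did not pass for KO against WT at ns or at LPS, with or without number 2. It was singled out from 104 pathway genes, and over all genes 0.432% passed in the averaged comparison.

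Slc7a11, which encodes the cystine transporter subunit xCT and was also singled out after its values were seen, was lower in KO than in WT at LPS without number 2, by a log2 difference of -2.44 ± 0.47 (edgeR adjusted p = 0.0289). It was called in 3 of 7 settings without number 2 (estimates from -2.80 to -1.94) and in 1 of 11 settings with it (from -2.39 to -1.67). WT LPS 7 and WT LPS 8 held 119.3 and 113.0 CPM, while the other WT samples labelled LPS held 6.86 to 41.4 CPM and the KO samples 3.50 to 24.8 CPM.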
